A study of Homo sapiens with 6 samples.

Results

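The azurophil granule protein genes are MPO, PRTN3, ELANE, AZU1, CTSG, PRSS57, RNASE2, RNASE3, SRGN and CST7. They are listed by name, for proteins stored in or needed to fill the primary granule of the promyelocyte. The group was taken up because granule genes are so abundant in these cells, so its high levels are a description of the choice and not a finding. They make up 10 of the 32364 genes in the deposited table, and all 10 were above 0 in every library. Kasumi-1 was established from an acute myeloid leukemia of the M2 subtype with the t(8;21) fusion of RUNX1 and RUNX1T1. Its mRNA was sequenced after 48 h with the control (3 libraries, control replicates 1 to 3; the methods name DMSO, the solvent of I13, as the control) and after 48 h with 0.5 µM I13 (3 libraries, I13 replicates 1 to 3), a histone deacetylase inhibitor. All 6 libraries come from this 1 cell line, with no genetic change between the groups. The study's legend calls its sequencing results representative of independent experiments, and the labels do not say which libraries came from separate cultures. The p-values below measure the spread between these libraries, which may in part be technical.

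Azurophil granules are the earliest granules that neutrophil precursors make. They are filled at the promyelocyte stage with the heme enzyme myeloperoxidase, with a family of chymotrypsin-like serine proteases and with small basic antimicrobial proteins, held on the proteoglycan serglycin. Their genes are transcribed at this stage and switched off as the cell goes on to make specific and then gelatinase granules, so their mRNA marks a stage of granulocyte maturation rather than the mature cell.

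Of the 10 proteins, 5 belong to the serine protease family, whose catalytic triad holds a histidine and a serine. The coding sequence around those residues is shown because it tells apart the 4 proteases from AZU1, which encodes azurocidin, an antimicrobial member of the family with no protease activity. The transcripts are those of GENCODE release 29 (GRCh38), each with 5 exons. Each stretch has 39 bases, read 5′ to 3′ on the coding strand, and the capitals mark the codon of the active site residue or, in AZU1, the codon aligned with it. Around the histidine, the stretch runs from exon 2 into exon 3 in every gene.
ELANE: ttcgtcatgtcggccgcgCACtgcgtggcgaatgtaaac
PRTN3: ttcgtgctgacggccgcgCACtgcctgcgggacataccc
CTSG: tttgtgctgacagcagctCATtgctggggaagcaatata
PRSS57: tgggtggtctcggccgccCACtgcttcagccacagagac
AZU1: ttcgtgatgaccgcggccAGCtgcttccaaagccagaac
ELANE, PRTN3 and PRSS57 had CAC and CTSG had CAT, which are histidine codons, and AZU1 had AGC, a serine codon. With the intron they span, these stretches lie at chr19:852998-853265 (ELANE, plus strand), chr19:843592-843896 (PRTN3, plus), chr14:24574804-24575296 (CTSG, minus), chr19:691999-694848 (PRSS57, minus) and chr19:828352-829565 (AZU1, plus).

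Around the serine, the stretch runs from exon 4 into exon 5.
ELANE: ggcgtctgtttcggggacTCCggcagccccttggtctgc
PRTN3: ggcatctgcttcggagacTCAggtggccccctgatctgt
CTSG: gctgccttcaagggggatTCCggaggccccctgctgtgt
PRSS57: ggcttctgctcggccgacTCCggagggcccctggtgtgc
AZU1: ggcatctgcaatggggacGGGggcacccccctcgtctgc
The 4 proteases had TCC or TCA, both serine codons, and AZU1 had GGG, a glycine codon. These stretches span chr19:855783-855984 (ELANE), chr19:846366-847825 (PRTN3), chr14:24573784-24574256 (CTSG), chr19:685896-686936 (PRSS57) and chr19:830930-831742 (AZU1). ELANE and PRTN3 shared the longest run of identical transcript bases in the family, 25 bases, and the other pairs shared runs of 10 to 16.

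The values are FPKM, the fragments on a gene relative to its exon length and to the mapped fragments of the library. Levels can be compared between genes as far as the annotated exon length of each matches the transcripts made, which was not tested. Fragment numbers were recovered from them, as 95.4% of the genes above 0 with a known exon length gave whole fragments within a tolerance of 0.01. The libraries held 16566742 to 17221345 fragments in the control group and 15281052 to 16682550 in the I13 group, and counts of fragments bound counting error only. In a principal component analysis of the 4133 genes of at least 10 FPKM, the leading component held 43.3% of the variance and separated 2 libraries from the other 4. These were control replicate 3 and I13 replicate 2, called the pair below. Each change is therefore also given within the pair and within the other 4 libraries. KIT, a receptor of immature myeloid cells, was at 196 to 236 FPKM, RUNX1T1 at 12.5 to 14.4 and CD34 at 38.3 to 45.9.

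The 10 genes differed widely in level. They spanned more than 4 orders of magnitude, from MPO, the most abundant gene of the control group, to RNASE3, below 1 FPKM on average. Together they held 6.62%, 6.65% and 6.88% of the summed FPKM in control replicates 1, 2 and 3 and 6.13%, 6.70% and 5.81% in I13 replicates 1, 2 and 3. Of this, MPO made up between 59.2% and 61.6% and the 6 most abundant members between 99.55% and 99.66%.

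**Figure D1:**
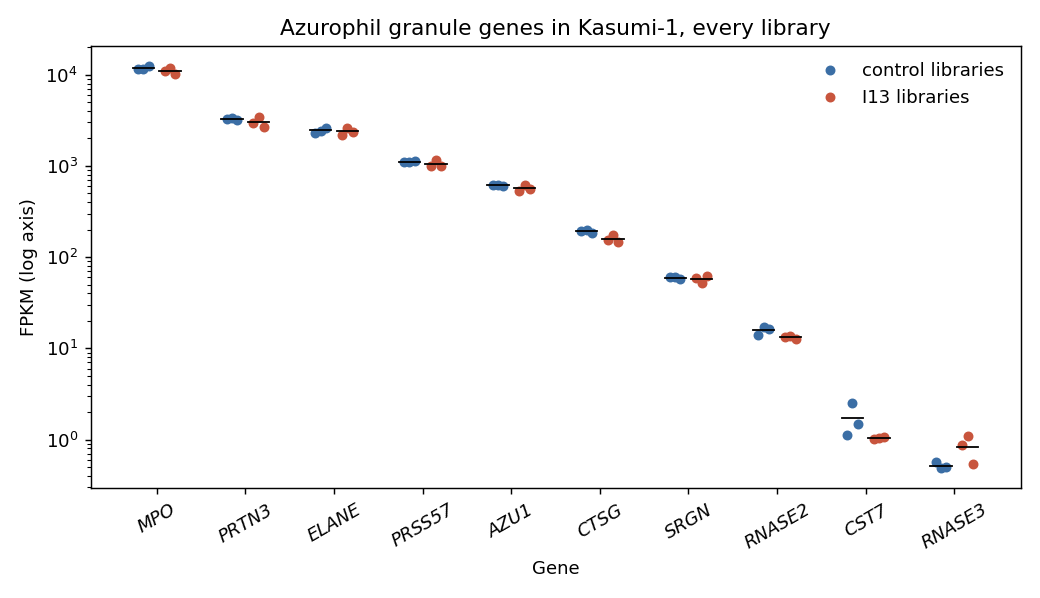
Level of each azurophil granule gene in FPKM (vertical log axis) in the 3 control libraries (blue) and the 3 I13 libraries (red), with genes ordered by mean level along the horizontal axis and black lines at the group means. MPO lies at 10241 FPKM or more in all 6 libraries, CST7 and RNASE3 lie near 1, and the libraries of a gene lie close together compared with the distance between genes.

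MPO (ENSG00000005381, chr17:58269856-58280935, minus strand) encodes myeloperoxidase, which makes hypochlorous acid from hydrogen peroxide and chloride. It was at 11686, 11693 and 12450 FPKM in control replicates 1 to 3 and at 11056, 11783 and 10241 FPKM in I13 replicates 1 to 3. I13 replicate 2 lay among the control libraries and the other I13 libraries lay below them, so the groups overlapped. MPO ranked 1 in both groups by mean FPKM, ahead of MT-CO1, a mitochondrially encoded subunit of cytochrome c oxidase, at 10376 FPKM in the control group. It took between 551805 and 727239 fragments of a library. Counting error at this depth was 0.122% of the level, and the SD between libraries was 3.68% of the mean in the control group and 6.99% in the I13 group.

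PRTN3 (ENSG00000196415, chr19:840960-848175, plus strand) encodes proteinase 3, the target of antibodies in granulomatosis with polyangiitis. Its level was 3247, 3372 and 3150 FPKM in the control libraries and 2922, 3475 and 2659 FPKM in the I13 libraries. I13 replicate 2 was the highest of the 6 and I13 replicate 3 the lowest. It ranked 8 in the control group, and among genes of the nucleus it ranked 3, after MPO and EEF1A1, the translation elongation factor.

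ELANE (ENSG00000197561, chr19:851014-856247, plus strand) encodes neutrophil elastase, the gene mutated in many patients with severe congenital or cyclic neutropenia. It was at 2290, 2412 and 2638 FPKM in the control libraries and 2194, 2624 and 2349 FPKM in the I13 libraries, and the groups overlapped. The highest library of each group was the one in the pair. ELANE ranked 13 in the control group and 4 among genes of the nucleus. The ratio of PRTN3 to ELANE was 1.42, 1.40 and 1.19 in control replicates 1 to 3 and 1.33, 1.32 and 1.13 in I13 replicates 1 to 3, so PRTN3 was the higher of these neighbours in all 6 libraries.

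PRSS57 (ENSG00000185198, chr19:685546-695498, minus strand) encodes neutrophil serine protease 4, which cuts after arginine. Its values were 1105, 1093 and 1144 FPKM in the control libraries and 1007, 1174 and 992 FPKM in the I13 libraries. A processed pseudogene on the opposite strand, RPS2P52, overlaps it and was at 6.69 FPKM. AZU1 (ENSG00000172232, chr19:825097-832018, plus strand) was at 624, 621 and 603 FPKM in the control libraries and 537, 622 and 557 FPKM in the I13 libraries. In both genes 2 of the 3 I13 libraries lay below the control group and I13 replicate 2 did not.

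CTSG (ENSG00000100448, chr14:24573522-24576260, minus strand) encodes cathepsin G, a protease with chymotrypsin-like specificity. It was at 194, 198 and 184 FPKM in the control libraries and at 153, 174 and 147 FPKM in the I13 libraries. Every I13 library lay below every control library. The lowest control library and the highest I13 library were those of the pair. CTSG ranked 144 in the control group and 180 in the I13 group.

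SRGN (ENSG00000122862, chr10:69088106-69104811, plus strand) encodes serglycin, the proteoglycan core on which the basic granule proteins are packed. Its level was 60.4, 60.2 and 57.3 FPKM in the control libraries and 59.4, 52.2 and 62.01 FPKM in the I13 libraries. Both libraries of the pair were the lowest of their group, the reverse of ELANE. CST7 (ENSG00000077984, chr20:24949230-24959928, plus strand) encodes cystatin F, an inhibitor of the cathepsins that process granule proteases. It was at 1.12, 2.51 and 1.49 FPKM in the control libraries and 1.01, 1.03 and 1.06 FPKM in the I13 libraries, from 18, 40 and 23 fragments and 15, 16 and 15 fragments. The 3 I13 libraries lay close together below the control group, whose spread came mostly from control replicate 2.

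The remaining members are ribonucleases of the RNase A family that are best known from eosinophil granules. RNASE2 (ENSG00000169385, chr14:20955452-20956436, plus strand) encodes the eosinophil-derived neurotoxin and RNASE3 (ENSG00000169397, chr14:20891399-20892348, plus strand) the eosinophil cationic protein. RNASE2 was at 14.2, 17.0 and 16.1 FPKM in the control libraries and 13.4, 13.8 and 12.6 FPKM in the I13 libraries, with no overlap between the groups. RNASE3 was at 0.565, 0.486 and 0.503 FPKM in the control libraries and 0.872, 1.08 and 0.545 FPKM in the I13 libraries, and here I13 replicate 3 lay within the control range. The genes lie 63.1 kb apart, and the mean RNASE2 level was 21.5 times the mean RNASE3 level. Their transcripts were identical at 640 of 723 aligned bases (88.5%) with a longest shared run of 67. How fragments from such shared stretches were counted was not tested. RNASE3 rested on 6 to 13 fragments a library, so its values are uncertain.

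The order of levels was therefore MPO, PRTN3, ELANE, PRSS57, AZU1, CTSG, SRGN, RNASE2, CST7 and RNASE3. Of the 9 pairs of neighbours in this order, CST7 and RNASE3 alone overlapped over the 6 libraries. The lowest PRTN3 library (2659 FPKM) and the highest ELANE library (2638 FPKM) came closest among the others. Between the libraries, the ratio of PRSS57 to AZU1 stayed within 1.76 to 1.90, and that of ELANE to AZU1 within 3.67 to 4.38. Such ratios depend on the exon lengths. PRSS57 averaged 19529 fragments on 1090 bases of exon and AZU1 17480 fragments on 1783 bases.

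The comparison of I13 with control asks whether the mRNA of the azurophil programme changed after 48 h with the inhibitor. No member passed the adjusted p. The members' log2 fold changes were below 0 in 9 of 10 genes, all but RNASE3, and the most abundant members lay close to 0. Over all 18726 genes tested, 48.2% were below 0, and among the 305 genes of at least 100 FPKM 35.1% were. The median log2 fold change was -0.11 over the members and 0.0058 over all genes tested.

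CTSG had the smallest p of the members. It was lower in 3 of 3 I13 libraries, with 192 ± 7.07 FPKM (SD, n = 3) in the control group and 158 ± 14.3 FPKM in the I13 group. The log2 fold change was -0.29 (SE 0.071, 95% interval -0.45 to -0.12), which is a fold of 0.819 (0.730 to 0.920). In limma the unadjusted p was 0.00468 and the adjusted p 0.742, and the exact permutation test gave 0.1, the smallest two-sided p that 3 against 3 libraries allow. Within the pair the log2 fold change was -0.084 and in the other 4 libraries -0.39. With voom on the recovered fragments the adjusted p was 0.185 in all 6 libraries, 0.00639 with a term for the pair (0.55% of genes passed, and CTSG was the only member) and 3.48e-04 in the 4 libraries alone. Those 2 fits were chosen after seeing the data.

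RNASE2 was also lower in 3 of 3 I13 libraries, at 15.8 ± 1.45 FPKM in the control group and 13.3 ± 0.634 FPKM in the I13 group. The log2 fold change was -0.24 (SE 0.080, 95% interval -0.43 to -0.055; limma unadjusted p 0.0184, adjusted p 0.890). It was -0.22 within the pair and -0.26 in the other 4 libraries. The total was 606 fragments in the control group and 480 in the I13 group, a ratio of 0.843 per library depth (95% interval 0.746 to 0.952, counting error only). With voom the unadjusted p was 0.0739.

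These were the 2 members of 10 with an unadjusted p under 0.05, both lower. Of all genes tested, 2.59% had an unadjusted p under 0.05 and were lower, and 5.14% in either direction. By the adjusted p, 0 members were called and 0.0% of all genes. With the fold threshold of 0.58 on the log2 scale added to the unadjusted p, 0 members were called and 2.38% of all genes. In voom 2 members, MPO and CTSG, had an unadjusted p under 0.05 and were lower, as did 2.8% of the 13825 genes tested there, and 0 members had an adjusted p under 0.05 (0.0362% of genes). CTSG, RNASE2 and CST7 were lower in every I13 library than in any control library, 3 of 10 members, and 4.64% of all genes were.

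**Figure D2:**
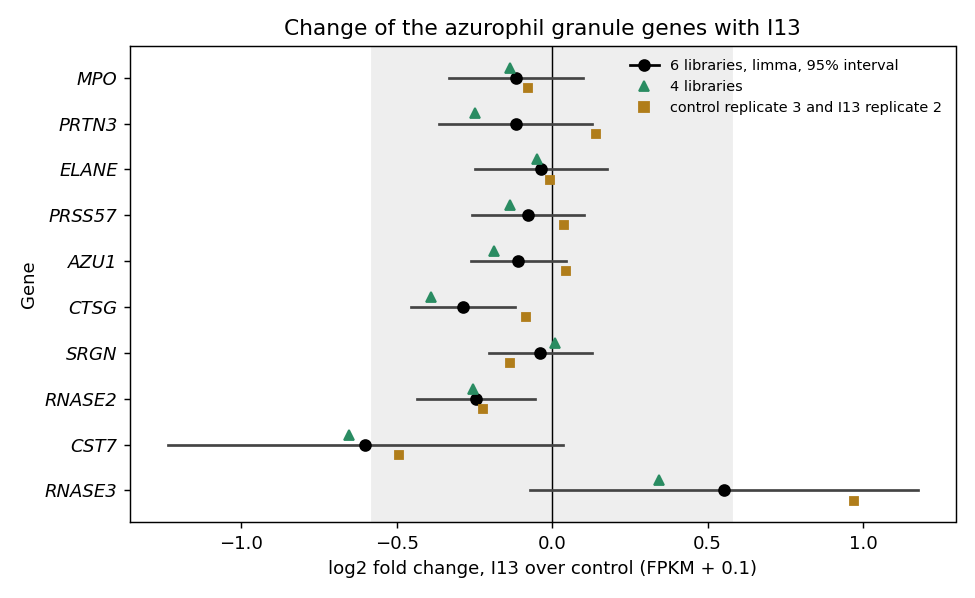
Log2 fold change of each azurophil granule gene, I13 over control, on the scale of log2(FPKM + 0.1), along the horizontal axis. Black points and lines are the limma estimate and its 95% interval over 6 libraries, green triangles the 4 libraries outside the pair, brown squares the pair (control replicate 3 and I13 replicate 2), and the grey band is the range within the fold threshold of 0.58. The intervals of CTSG and RNASE2 alone leave out 0, and for PRTN3, PRSS57 and AZU1 the pair lies above 0 and the other 4 libraries below it.

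The 5 most abundant genes had log2 fold changes between -0.12 and -0.036. MPO was at 11943 ± 439 FPKM in the control group and 11027 ± 771 FPKM in the I13 group (log2 fold change -0.12, SE 0.092, 95% interval -0.33 to 0.10, limma adjusted p 0.983). That interval reaches from a fold of 0.794 to 1.07. PRTN3 was at 3256 ± 112 and 3019 ± 416 FPKM, with the same estimate of -0.12 and an interval of -0.36 to 0.13. ELANE was at 2446 ± 176 and 2389 ± 218 FPKM, a log2 fold change of -0.036 with an interval of -0.25 to 0.18. With 3 libraries a group, limma did not tell these changes from 0, and changes anywhere within the intervals remain possible. For MPO voom gave an unadjusted p of 0.0213 and an adjusted p of 0.762. Over 22 alternative fits its unadjusted p ran from 0.0015 (voom with the pair term) to 0.989 (limma with no filter). It was under 0.05 in 4 of them, all voom fits.

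Among the others, PRSS57 had a log2 fold change of -0.079 (95% interval -0.26 to 0.10) and AZU1 of -0.11 (-0.26 to 0.043). For AZU1 the estimate was 0.045 within the pair and -0.19 in the other 4 libraries, where the limma unadjusted p was 0.0151. PRTN3 stood likewise at 0.14 within the pair and -0.25 in the other 4 libraries, and PRSS57 at 0.038 and -0.14. In voom with those 4 libraries alone, CTSG, PRTN3 and AZU1 had an adjusted p under 0.05, 3 of the 9 members tested, with adjusted p of 3.48e-04, 0.0123 and 0.0369, and 0.865% of genes did. Whether the pair or the other libraries give the truer value was not tested.

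SRGN had a log2 fold change of -0.039 (95% interval -0.20 to 0.13), and it lay at -0.13 within the pair and 0.0096 in the other 4 libraries. CST7 had the largest decrease, -0.60 (SE 0.27, interval -1.24 to 0.034, limma unadjusted p 0.0602, adjusted p 0.947). It rested on 81 control and 46 I13 fragments, a ratio of 0.604 per library depth (95% interval 0.411 to 0.878, counting error only), and without control replicate 2 its log2 fold change was -0.30. RNASE3 had the only increase, 0.55 (SE 0.26, interval -0.070 to 1.18, unadjusted p 0.0740), on 19 control and 29 I13 fragments, a ratio of 1.62 (0.880 to 3.06).

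**Figure D3:**
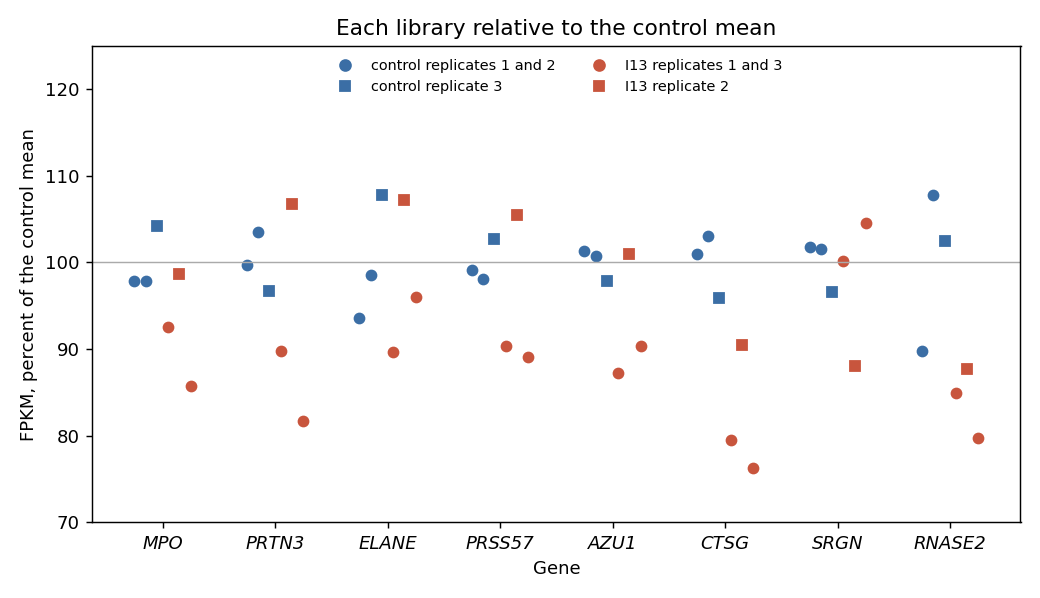
FPKM of each library as a percentage of the gene's control mean (vertical axis) for the 8 azurophil granule genes above 10 FPKM; blue is control, red is I13, and squares mark control replicate 3 and I13 replicate 2. For CTSG the I13 libraries lie at 79.5%, 90.5% and 76.3% of the control mean, and I13 replicate 2 is the highest I13 library of every gene shown except SRGN, where it is the lowest.

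Summed over the members, the level was 19222, 19468 and 20244 FPKM in the control libraries and 17943, 19920 and 17020 FPKM in the I13 libraries, 19645 ± 533 against 18294 ± 1481 (ratio of means 0.931). The groups overlapped, as I13 replicate 2 lay between the control libraries. In bulk RNA, fewer cells that express a gene and less of its RNA per cell cannot be told apart. The share of mitochondrially encoded genes was 17.4% to 18.6% and did not separate the groups. The ratio of ELANE to CTSG was 12.8 ± 1.35 in the control group and 15.2 ± 0.840 in the I13 group, and control replicate 3 (14.3) lay just below the lowest I13 library.

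AZU1, PRTN3 and ELANE stand in this order on the plus strand of chromosome 19, within 31.15 kb from the start of AZU1 to the end of ELANE. PRTN3 and ELANE are 2.839 kb apart and AZU1 and PRTN3 8.942 kb. PRSS57 lies 129.6 kb from AZU1 on the minus strand. CFD, which encodes complement factor D, lies 3.396 kb beyond ELANE and was at 434 FPKM, the highest of the non-member neighbours of all 10 genes. On the other side of AZU1, PLPPR3 was at 130 FPKM and PTBP1, a splicing regulator, at 133 FPKM. Beyond CFD, MED16 was at 20.8 FPKM. Between PRSS57 and this cluster, PALM was at 18.04 FPKM and MISP was listed at 0 in all 6 libraries.

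**Figure D4:**
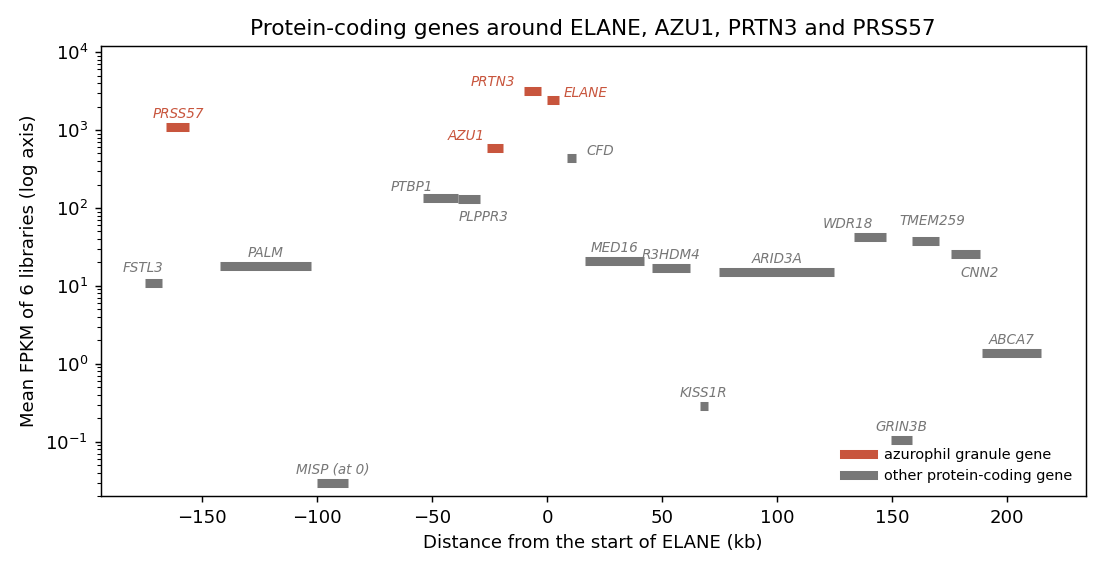
Mean FPKM of 6 libraries (vertical log axis) for the protein-coding genes around ELANE on chromosome 19, each drawn as a bar from its start to its end at its distance from the start of ELANE in kb (horizontal axis); red bars are azurophil granule genes and grey bars are others, with MISP, at 0, drawn at the bottom. PRTN3, ELANE, PRSS57 and AZU1 are the 4 highest, and CFD follows at 434 FPKM.

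Of these neighbours PALM, with a log2 fold change of -0.23, had an unadjusted p under 0.05 (0.0437; adjusted p 0.947). CFD had a log2 fold change of -0.0047 and an unadjusted p of 0.953. The other members had neighbours at various levels. LPO, the lactoperoxidase gene 1.338 kb from MPO, was at 8.73 FPKM, and TSPOAP1 at 34.4, SUPT4H1 at 9.91 and MKS1 at 2.59 FPKM stood further from it. Next to PRSS57, FSTL3 was at 10.9 and RNF126 at 28.6 FPKM. Beside CTSG, the mast cell chymase gene CMA1 was at 0.164 FPKM, SDR39U1 at 1.31 FPKM, and the granzyme gene GZMB was listed at 0 in all 6 libraries (GZMH was not analysed here). RNASE1, between the ribonuclease genes and RNASE6, was listed at 0 and RNASE6 was at 0.117 FPKM. On the other side, METTL17 at 6.45 FPKM lay between RNASE2 and RNASE3 in level, and SLC39A2 was listed at 0. APMAP, 2.997 kb from CST7, at 46.0 FPKM and ACSS1 at 14.8 FPKM were above CST7, while SYNDIG1 was at 0.00368 FPKM (GGTLC1 was not analysed here). DDX21, an RNA helicase gene near SRGN, was above SRGN at 87.1 FPKM, and VPS26A at 22.2, SUPV3L1 at 15.5 and KIF1BP at 4.30 FPKM were below it.

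Promoter sequence was taken from RefSeq (GRCh38.p14), from 250 bases before the transcription start, for the 6 members found there; MPO, ELANE, SRGN and CST7 were not among them. Short motifs of the factors known to act on these genes were searched on both strands in the promoters of the 6 members and of all 35116 entries. The C/EBP type TTGCNNAA was in 4 of the 6 (PRTN3, AZU1, RNASE2 and RNASE3) and in 9.05% of all promoters. The MYB type AACNGNC was in 4 of the 6 (PRTN3, AZU1, CTSG and PRSS57) and in 26.9% of all. The PU.1 type GAGGAA was in 2 (23.6% of all) and the RUNX type TGNGGT in 1 (37.7% of all). These are matches of letters and not measured binding sites.

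The stretch from -125 to -40 is shown for the 3 chromosome 19 members with an entry, because all 3 held a MYB-type match near its downstream end. Positions are counted from the RefSeq start, and capitals mark the C/EBP-type and MYB-type matches.
PRTN3: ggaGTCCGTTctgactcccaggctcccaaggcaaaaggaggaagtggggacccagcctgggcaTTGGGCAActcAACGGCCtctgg
AZU1: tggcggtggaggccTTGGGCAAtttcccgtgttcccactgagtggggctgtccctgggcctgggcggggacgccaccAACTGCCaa
PRSS57: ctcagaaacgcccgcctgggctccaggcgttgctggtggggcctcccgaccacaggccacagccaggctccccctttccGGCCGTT
They lie at chr19:840874-840959 (PRTN3, plus strand), chr19:827712-827797 (AZU1, plus) and chr19:695492-695577 (PRSS57, minus). The RefSeq starts differ from the GENCODE gene ends given above. The AZU1 stretch lies inside the GENCODE gene, and the PRSS57 stretch overlaps the 5′ end of its gene. The MYB-type match began at -51 in PRTN3, at -48 in AZU1 and, on the opposite strand, at -46 in PRSS57. PRTN3 held a further one at -122. The C/EBP-type match TTGGGCAA stood at -62 in PRTN3 and at -111 in AZU1.

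RNASE2 and RNASE3 are shown with a longer stretch because their upstream sequence was alike while their levels were not. Of 233 aligned upstream bases 192 were identical (82.4%), with a longest shared run of 86. Capitals mark the C/EBP-type match.
RNASE2: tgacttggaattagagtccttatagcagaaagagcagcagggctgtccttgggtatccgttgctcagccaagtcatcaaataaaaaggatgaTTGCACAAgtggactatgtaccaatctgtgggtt
RNASE3: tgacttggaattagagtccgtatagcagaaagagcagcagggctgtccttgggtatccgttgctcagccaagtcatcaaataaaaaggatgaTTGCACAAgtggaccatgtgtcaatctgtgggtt
The RNASE2 stretch is chr14:20955250-20955375, from -237 to -112, and the RNASE3 stretch is chr14:20891199-20891324, from -186 to -61, both on the plus strand. The match TTGCACAA stood at -145 in RNASE2 and at -94 in RNASE3. The lowest ratio of RNASE2 to RNASE3 in any library was 12.8 and the highest 35.0.

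The rest of the azurophil granule was represented by a list of 17 other genes, 13 of them in the table. The 4 defensin genes of the list were not analysed here. The most abundant were the lysosomal enzyme genes GAA (acid alpha-glucosidase, 89.5 FPKM) and MAN2B1 (lysosomal alpha-mannosidase, 82.7 FPKM), followed by CD63, which encodes a granule membrane protein, at 71.3 FPKM, so that 6 of the 10 members were above every one of them. LYZ, which encodes lysozyme, was at 4.54, 4.79 and 5.65 FPKM in the control libraries and 2.99, 2.99 and 3.78 FPKM in the I13 libraries. It was lower in 3 of 3 I13 libraries (log2 fold change -0.60, SE 0.13, limma unadjusted p 0.00216, adjusted p 0.570) and was the only gene of the 12 tested with an unadjusted p under 0.05. BPI, the bactericidal/permeability-increasing protein gene, was at 0.289 to 0.491 FPKM.

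Apart from B2M and QSOX1, the genes of the later granules were low or listed at 0. Of 25 specific and gelatinase granule genes, 23 were in the table, 9 were listed at 0 in every library and 6 passed the filter for testing. LTF (lactoferrin), CAMP (cathelicidin), MMP9 (gelatinase B) and CEACAM8 were among those at 0. B2M, which every nucleated cell expresses, at 110 FPKM and QSOX1 at 35.7 FPKM were the most abundant of the list, followed by CEACAM6 at 1.32 FPKM and MMP25 at 1.15 FPKM. OLFM4 was at 0.405 ± 0.155 FPKM in the control group and 0.172 ± 0.050 FPKM in the I13 group (log2 fold change -0.87, limma unadjusted p 0.0412, adjusted p 0.947). It rested on 6 to 29 fragments a library.

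**Figure D5:**
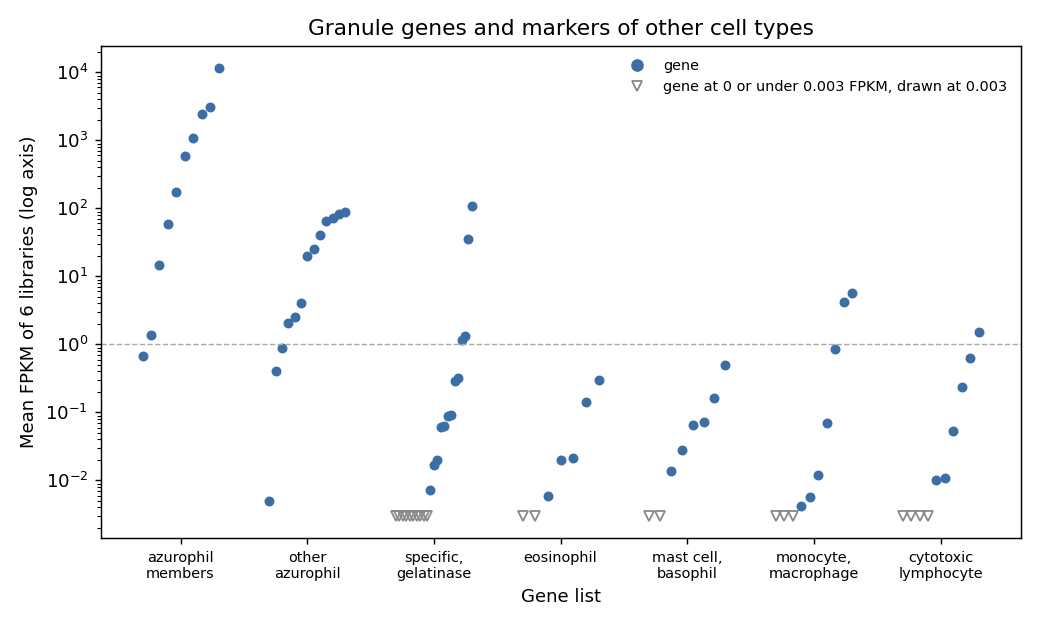
Mean FPKM over 6 libraries (vertical log axis) of each gene in 7 lists (horizontal axis): the azurophil members, other azurophil genes, specific and gelatinase granule genes, and markers of eosinophils, mast cells and basophils, monocytes and macrophages, and cytotoxic lymphocytes. Open triangles are genes at 0 or under 0.003 FPKM, and the dashed line is 1 FPKM; 9 of 10 azurophil members lie above it, and no eosinophil or mast cell marker does.

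Some members are also made by other cell types, whose markers were low beside the abundant members. CST7 averaged 1.37 FPKM and RNASE3 0.676 FPKM, and the cytotoxic lymphocyte marker CD8A was above both. Of the eosinophil markers, which bear on RNASE2 and RNASE3, 7 were in the table and summed to 0.428 to 0.490 FPKM in the control libraries and 0.389 to 0.657 FPKM in the I13 libraries, with CLC and IL5RA at 0 and the highest, SIGLEC8, at 0.300 FPKM, before EPX at 0.141 and PRG2 at 0.0216 FPKM. The 8 mast cell and basophil markers summed to 0.780 to 0.872 and 0.694 to 1.06 FPKM, with MS4A2 and FCER1A at 0 and the tryptase genes TPSB2 at 0.495 and TPSAB1 at 0.0731 FPKM. The 10 cytotoxic lymphocyte markers, which bear on CST7, summed to 2.47 to 2.86 and 2.08 to 2.52 FPKM. CD3G, GZMB, PRF1 and KLRD1 were at 0, CD8A was at 1.53 FPKM and NKG7 at 0.633 FPKM. CD3D was lower with I13 (0.338 against 0.135 FPKM, limma unadjusted p 0.0205, adjusted p 0.89), on 2 to 6 fragments a library.

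The 10 monocyte and macrophage markers summed to 11.1 to 12.5 FPKM in the control libraries and 8.76 to 10.8 FPKM in the I13 libraries, without overlap. Most of this was FCGR1A at 4.24 FPKM and CSF1R, the receptor of macrophage colony-stimulating factor, at 6.87, 6.13 and 6.97 against 4.27, 5.07 and 5.17 FPKM (log2 fold change -0.46, limma unadjusted p 0.00244, adjusted p 0.583). S100A9 was at 0.855 FPKM, and CD163, C1QA and FCGR3A were at 0. The 5 B cell markers summed to 5.17 to 5.70 and 5.67 to 6.80 FPKM, led by CD79B at 3.19 and CD79A at 1.66 FPKM, and PAX5 was higher with I13 (0.561 against 0.949 FPKM, unadjusted p 0.0204). The part of these markers in the members' changes was not tested.

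Genes that process and sort granule proteases were present, 21 of 22 at 1 FPKM or more, with 10 above and 12 below a log2 fold change of 0. CTSC, which encodes the dipeptidyl peptidase that activates the serine proteases, was at 24.8 to 26.3 FPKM in the 6 libraries. Of the 22, 3 had an unadjusted p under 0.05 and were lower, as did 2.59% of all genes. CSF3R, the receptor of granulocyte colony-stimulating factor, was at 91.8, 91.0 and 91.0 FPKM in the control libraries and 71.4, 78.4 and 78.2 FPKM in the I13 libraries (log2 fold change -0.27, SE 0.050, limma unadjusted p 0.00105, adjusted p 0.517). WAS, an actin regulator (log2 fold change -0.22, unadjusted p 0.0323), and TCIRG1, a proton pump subunit (-0.20, unadjusted p 0.0467), were the other two. UNC13D, needed for granule release, was at 33.1 FPKM (-0.17, unadjusted p 0.0541).

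Of the inhibitors of the granule proteins, 9 of 11 tested were below 0, where 48.2% of all genes were, and 4 had an unadjusted p under 0.05 and were lower, where 2.59% of all genes were. SERPINB1, the main inhibitor of the neutrophil serine proteases within the cell, was at 270, 249 and 237 FPKM in the control libraries and 215, 214 and 226 FPKM in the I13 libraries (log2 fold change -0.21, SE 0.059, limma unadjusted p 0.0101, adjusted p 0.860). It was above CTSG in every library, and ELANE was 8.49 to 12.3 times as high in the 6 libraries. SERPINA1, the gene of alpha-1-antitrypsin, was at 3.94 ± 0.280 and 2.76 ± 0.455 FPKM (-0.51, unadjusted p 0.00576). SLPI, an elastase inhibitor, was at 1.61 ± 0.304 and 0.905 ± 0.227 FPKM (-0.78, limma unadjusted p 0.0108, adjusted p 0.875). It rested on 6 to 19 fragments a library, and voom gave an unadjusted p of 0.0537. CST3, cystatin C, was at 18.9 ± 1.19 and 16.5 ± 1.55 FPKM (-0.20, limma unadjusted p 0.0450). SERPINB6 at 29.8 FPKM and the ribonuclease inhibitor gene RNH1 at 18.6 FPKM were the next most abundant after SERPINB1, with log2 fold changes of -0.022 and -0.073.

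The genes listed for myeloperoxidase folding and heme metabolism lay on both sides of 0, with 9 above 0 and 8 below of 17 tested. Of these, 0 had an unadjusted p under 0.05 in limma. CALR, calreticulin, which binds the myeloperoxidase precursor, was at 1640 to 1820 FPKM, HSPA5 at 350.0 FPKM and CANX, calnexin, at 196 FPKM. Of the 20 genes of the chain that builds the glycosaminoglycans of serglycin, 19 were tested, with 13 above and 6 below 0. SLC35B2 (32.4 FPKM), CHST11 (31.6 FPKM) and B3GALT6 (25.4 FPKM) were the most abundant. Of the 19 tested, 1 had an unadjusted p under 0.05 in limma, where 5.14% of all genes did. This was B4GALT7, which adds the first galactose of the linker, at 4.04 ± 0.356 FPKM in control and 4.70 ± 0.162 FPKM with I13. Its log2 fold change was 0.22 (limma unadjusted p 0.0472, adjusted p 0.947).

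Of 13 transcription factor genes that act on the azurophil genes, 11 were tested, with 5 above and 6 below 0 and 0 with an unadjusted p under 0.05 in limma. GFI1 was at 146 to 162 FPKM, SPI1, which encodes PU.1, at 99.99 to 122 FPKM, and MYB at 49.8 to 70.1 FPKM. CEBPE, needed for the step to specific granules, was at 31.2 to 36.8 FPKM and CEBPA at 4.22 to 6.52 FPKM. Of all genes, 5.14% had an unadjusted p under 0.05 in either direction. Among the 10 markers of Kasumi-1 and immature myeloid cells, 9 were tested and 2 had such a p, both higher. These were ANPEP (CD13), at 24.0 ± 2.06 FPKM in the control group and 30.6 ± 1.47 FPKM in the I13 group (log2 fold change 0.35, SE 0.073, limma unadjusted p 0.00184, adjusted p 0.540), and CD33, at 11.5 ± 0.613 and 13.2 ± 0.483 FPKM (0.20, unadjusted p 0.0166, adjusted p 0.890). The paper counts a rise of CD13 on the surface of Kasumi-1 cells, at a later time, as a sign of differentiation. POU4F1 was at 4.64, IL3RA at 3.91, CLEC12A at 1.25 and CD38 at 1.08 FPKM. Over all the lists beside the members, 15 of 119 genes tested (12.6%) had an unadjusted p under 0.05 and 0 an adjusted one. The unadjusted share over all genes was 5.14%. The lists were written with earlier results of these data known, so no enrichment can be read from these shares. Of the 15, 11 were lower.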

How the data were processed

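Total RNA of Kasumi-1 cells was made into libraries with the TruSeq Stranded mRNA kit. The authors deposited 1 table of FPKM values. The submitters' processing notes name Trimmomatic, HISAT2, Cufflinks, HTSeq and hg38. The annotation release is not given in the sources used here, and strand use in counting is not stated. Values were used without further scaling. Fragments were recovered with GENCODE release 29 exon lengths and served as the depth behind each value.

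Differences were computed in R 4.3.3 with limma 3.58.1 (variance trend) on log2(FPKM + 0.1), which understates changes of low genes. The 18726 genes of mean FPKM of at least 0.1 were tested, with Benjamini-Hochberg adjustment. A p under 0.05 (adjusted or unadjusted) and a log2 change of 0.58 in size were the thresholds. Voom was run on the recovered fragments where a gene averaged 10 or more. Tables and exact tests used Python 3.11.15 with scipy 1.17.1. The fits were tested on simulated data.

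Members and lists were chosen with earlier results of these data known. Named were the members, their nearest protein-coding genes, list genes with an unadjusted p under 0.05, the 3 most abundant of each list and markers above 1 FPKM. The result of 1 marker list is not reported here. Other names (among them BPI, CTSC, LTF, CAMP, MMP9, CEACAM8, MMP25, CEBPE, CEBPA and markers at 0) were chosen after their values were seen. Alternatives were other pseudocounts, filters, scalings, variance models, a replicate block, voom and leaving out libraries. Voom fits with a pair term, with other library sizes and in 4 libraries were added after seeing the data.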

Additional observations from a re-analysis of the deposited data

How the results depend on the processing

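The call of 0 members at the adjusted p and the fold threshold held under every alternative run. Only CST7 and RNASE3 reached the fold threshold in any run, so the fold alone fixed this call for the other members. By the adjusted p alone, 1 member (CTSG) passed in voom with the pair term. In voom with the 4 libraries 3 members passed (CTSG, PRTN3 and AZU1), and none did elsewhere. CTSG kept a log2 fold change between -0.39 and -0.24 and an unadjusted p of at most 0.0277 in all 22 alternatives, and RNASE2 kept its direction with an unadjusted p under 0.05 in 13 of 22 (0.00386 to 0.109). Directions turned for ELANE with quantile normalization (0.049), without control replicate 3 (0.020) and without I13 replicate 1 (0.024; range with single libraries left out -0.11 to 0.024), and for SRGN in the 4 libraries outside the pair (0.0096, voom 0.0092) and without I13 replicate 2 (0.034; range -0.090 to 0.034). The causes were not tested. Members with an unadjusted p under 0.05 numbered 2, but 1 without the variance trend, 3 with quantile normalization, 4 in voom with the pair term, 5 in voom with the 4 libraries and 1 to 4 with single libraries left out (4 without I13 replicate 2). The share over all genes moved as well. It was 5.14% in the limma fit above, 4.77% without the variance trend and 5.37% with quantile normalization. In voom with the pair term it was 10.2%, and it was higher still in voom with the 4 libraries. The larger counts in those 2 voom fits can therefore not be read as a gain specific to the members. With the fold threshold, 0 to 1 members were counted with single libraries left out: CST7 without control replicate 1 and RNASE3 without I13 replicate 3. Of the list genes beside the members, 0 passed the adjusted p and fold, but 1 in voom with the pair term and 2 in voom with the 4 libraries. By the unadjusted p and fold 5 passed, against 0 with a pseudocount of 1 or a log2 threshold of 1, 2 at a mean FPKM of at least 1, 3 in each of the 4 voom fits and 2 to 5 with single libraries left out. By the unadjusted p alone there were 15, 25 in voom with the pair term and 9 to 18 with single libraries left out, the lowest without I13 replicate 1. The count of 25 likewise came with the higher share over all genes in that fit.

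Correlations of deviations between libraries of the same number were 0.32, -0.379 and -0.297 for replicates 1, 2 and 3. The 2 libraries of the pair, with different numbers, correlated at 0.514. Since the pair weighs on these values, they cannot decide whether the replicate numbers name matched samples. With a replicate block 2 members had an unadjusted p under 0.05 and 0 an adjusted one, and the CTSG p was 0.00463. At this depth RNASE3 (6 to 13 fragments) and CST7 (15 to 40) had a counting error of 35.4% and 21.7% of the level. For MPO it was 0.122%. What limited detection in the abundant members was not tested. Limma with no variance trend called 9 genes of all tested at the adjusted p and with no filter 36, and 0 of these were members.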
